A study of Mus musculus with 11 samples.

Results

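Within the mouse liver 24 h after paracetamol (acetaminophen, APAP), tissue spots rich in periportal hepatocyte transcripts were compared with spots poor in them. Members were chosen by measured values. In both 24 h sections, A and B, the tissue spots in which 800 genes or more were detected and mitochondrial transcripts made up no more than 20% of UMIs (unique molecular identifiers, each standing for 1 captured transcript) were ranked by their UMIs per 10000 of Cyp2f2, Hal, Sds and Hsd17b13, 4 genes of periportal hepatocytes. Hal and Sds encode enzymes that break down histidine and serine, Cyp2f2 a cytochrome P450 and Hsd17b13 a protein of lipid droplets. The top 20% of a section are called periportal and the bottom 20% portal-poor. This gave 504 spots of each class in section A and 330 of each in section B, 1668 of the 4169 passing spots at 24 h and of 25136 in the series. UMIs were summed per section and class, and the 4 ranking genes were left out of all tests.

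The series comprises 11 sections of mouse liver, measured with the 10x Visium assay, which captures polyadenylated RNA on a grid of barcoded spots. Each spot is wider than a hepatocyte, so it mixes several cells, and a spot class is a set of spots and not a cell type. The labels give 3 uninjured sections at 0 h (replicates 2, 3 and 4), and 2 at 24 h, 2 at 36 h and 4 at 48 h of an APAP time course, all without a transgene named. Per the study's methods the animals were adult male C57BL/6JCrl mice, fasted and then given APAP by intraperitoneal injection. For this assay the methods give n = 1 per time point, and how many mice the sections of a time came from is not stated. The value n therefore counts sections, and mouse, time and any batch cannot be told apart. The p-values measure the spread between sections alone. That spread was estimated from all 11 sections together, with 7 residual degrees of freedom, and not from the sections of 1 time by themselves.

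Blood enters the liver lobule at the portal tract and leaves by the central vein, and hepatocytes divide their work along this path. Periportal hepatocytes carry out urea synthesis, gluconeogenesis and amino acid breakdown, while pericentral hepatocytes make glutamine and express the cytochrome P450 enzymes, among them Cyp2e1, that turn APAP into a reactive product. Overdose therefore kills hepatocytes around the central vein first, and monocytes, macrophages and neutrophils enter the dead zone. A portal-poor spot of the injured liver can hold surviving pericentral hepatocytes, dying tissue or infiltrating cells. In summed spots, fewer cells of a type and less RNA per cell cannot be told apart.

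The 4 ranking genes are given as a description only, since they set the classes. In section A the lowest periportal spot held 15.7039 UMIs per 10000 of these genes and the next spot below it 15.7033, and the highest portal-poor spot held 4.51764 against 4.5208 in the next spot above. The same limits in section B were 21.5952 against 21.5811, and 8.05072 against 8.0573. A periportal spot held a median of 32 such UMIs in A and 49 in B, and a portal-poor spot 6 and 12, so the lower ranks carry more counting noise. When each gene was left out of the ranking and then read in the classes set by the other 3, it was 2.06 to 4.75 times as high in periportal as in portal-poor spots over both sections.

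**Figure D1:**
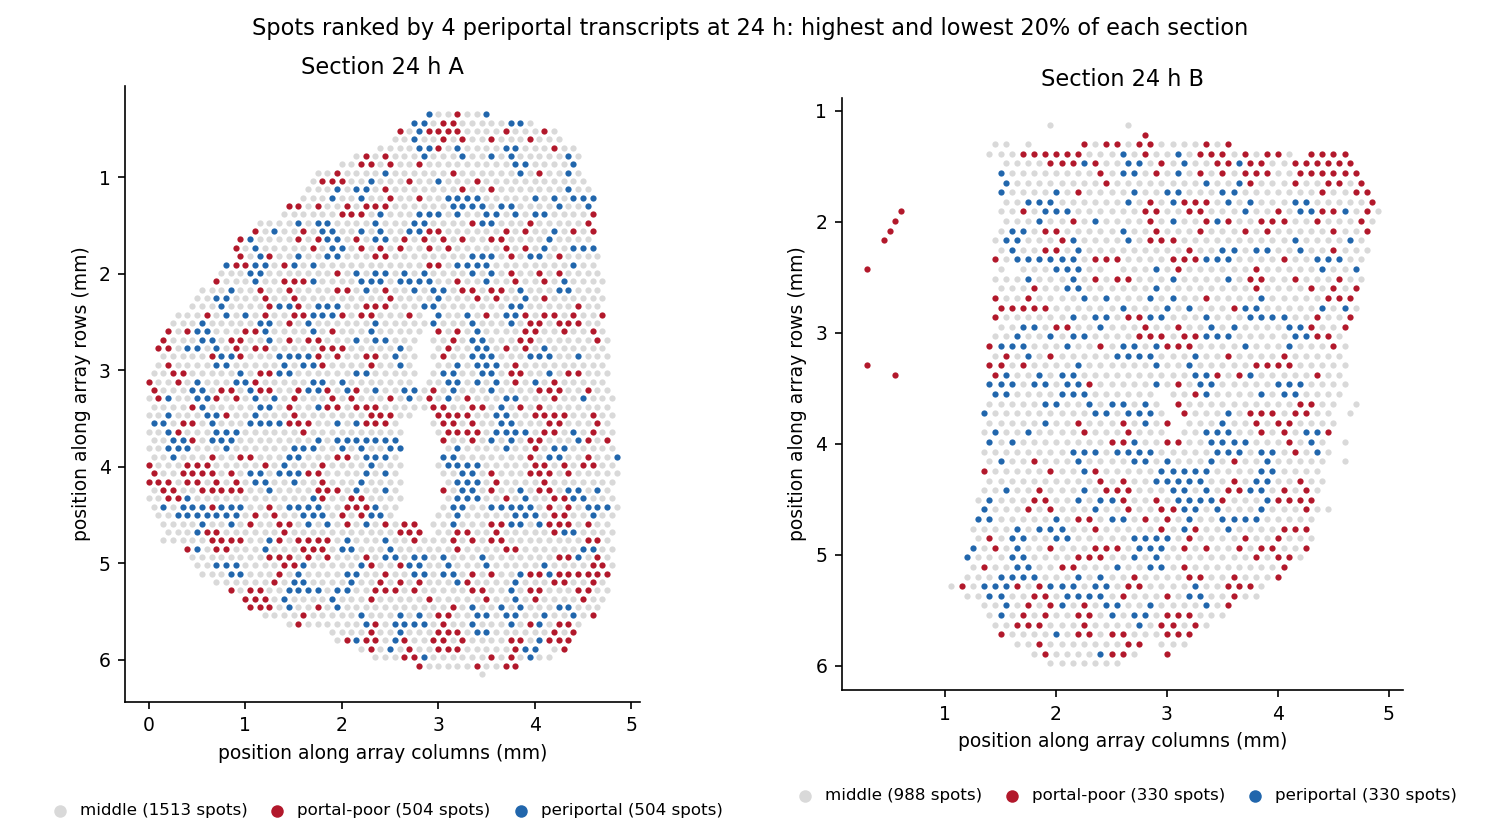
Array positions of the passing spots in the 24 h sections A and B, with distance along the array columns and rows (mm) on the axes and each spot coloured by class: periportal (highest 20%), portal-poor (lowest 20%) or middle. Both classes are spread over the whole of each section in small groups, and section B has a few portal-poor spots set apart from the tissue on its left.

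On the array, 39.3% and 38.4% of the spots touching a periportal spot of A and B were periportal too, and 34.7% and 36.2% of those touching a portal-poor spot were portal-poor. Opposite extremes made up 5.86% to 6.16% of touching spots. Depth was similar between the classes: the class sums held 8892343 periportal and 9634152 portal-poor UMIs in A, and 6201668 and 6715751 in B. Portal-poor spots held more detected genes, with medians of 4176 against 3644.5 in A and 4296 against 3746 in B. A set of 5 hepatocyte genes (Alb, Ttr, Apoa1, Apoa2 and Apoh) took 9.18% and 9.72% of periportal UMIs in A and B, and 6.95% and 6.84% of portal-poor UMIs. Portal-poor spots also lay more often at a tissue edge or hole: 10.7% in A and 22.1% in B lacked at least 1 of 6 touching spots, against 5.16% and 4.24% of periportal spots.

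Of 13554 genes tested with edgeR's quasi-likelihood model, 1969 (14.5% of those tested) were higher in periportal and 1818 (13.4%) higher in portal-poor spots at a Benjamini-Hochberg adjusted p under 0.05. Of these 3787 genes, 3780 had the same sign in both sections, which the call itself favours, against 9850 of all 13554. Larger differences lay on the portal-poor side, where 681 genes differed by at least 2-fold, against 275 on the periportal side. These counts are relative to the median gene. With libraries scaled by their total UMIs, the median gene moved to -0.32 on the log2 scale and the split changed from 52% of calls periportal to 13% of 5417, so a modest periportal excess means an excess over the median gene. Without section A 2495 genes were called, and without section B 1811.

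Log2 values below are periportal over portal-poor with their standard error (SE), and CPM is UMIs per 1000000 of the scaled class sum. Pairs of values are given for section A and then for section B, with the periportal value first unless the sentence names the portal-poor class first, and n = 2 sections throughout at 24 h.

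The genes furthest above the median gene in periportal spots were hepatocyte enzymes of the portal side and epithelial genes of the portal tract. Aldh1b1 (chr4:45799022-45804604, plus strand, mm10), a mitochondrial aldehyde dehydrogenase, stood at 177 against 25 CPM in A and 74.6 against 11 CPM in B. Its log2 difference was 2.80 (SE 0.20, adjusted p = 3.55e-07). Hsd17b6, a hydroxysteroid and retinol dehydrogenase, followed with 142 against 22.2 CPM and 85 against 12.1 CPM, a log2 difference of 2.73 (SE 0.17, adjusted p = 7.65e-09). For both genes the sections overlapped in no class, since each periportal value exceeded both portal-poor values.

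Spp1, which encodes osteopontin and is made by cholangiocytes and macrophages, stood at 320 against 45.6 CPM in A and 221 against 72.3 CPM in B, a log2 difference of 2.22 (adjusted p = 0.00322), at 1.61 without A and 2.81 without B. Cdh1, the epithelial adhesion protein E-cadherin, was 1.98 higher on the log2 scale. Pck1, the committed enzyme of gluconeogenesis, stood at 424 against 99.7 CPM in A and 1665 against 432 CPM in B. The sections differed in its level, so that the portal-poor spots of B held about as much Pck1 as the periportal spots of A, and the contrast of 2.02 (adjusted p = 7.04e-06) was seen within each section. Further leading genes were Cyp39a1, an oxysterol hydroxylase of bile acid synthesis (2.21), Tstd1 (1.93), the cystine transporter subunit Slc3a1 (1.92), AC135964.2 (1.68) and the glutaminase Gls2 (1.68). The fibroblast growth factor receptor gene Fgfr2 (1.67, adjusted p = 0.00753) had an adjusted p of 0.131 without A and likewise no call without B, at 1.73. Gm15883 (2.10) is annotated on the minus strand at chr7:27124481-27130674, inside the span of the ranking gene Cyp2f2 on the plus strand, so its difference may not be separate from the ranking.

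Genes of periportal hepatocyte metabolism were higher in periportal spots in list after list, read against 14.5% of all genes tested. In the urea cycle, 7 of 8 genes were higher and none lower (median 0.68 on the log2 scale against 0.00 for all genes tested). Cps1, which fixes ammonia in the first step, stood at 827 against 488 CPM and 747 against 409 CPM (0.81, adjusted p = 5.2e-06), and Arg1, which releases urea in the last, at 621 against 376 CPM and 861 against 449 CPM (0.83, adjusted p = 6.13e-07). Amino acid catabolism had 19 of 23 genes higher and none lower (median 0.75), with Fah of tyrosine breakdown at 0.71 and Mat1a, which makes S-adenosylmethionine, at 0.99. Gluconeogenesis and fasting genes had 6 of 12 higher and none lower (median 0.41, with 4 without B). G6pc, the last enzyme of glucose release, stood at 104 against 35.9 CPM and 48.5 against 14.6 CPM (1.61, adjusted p = 0.000455).

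Secreted proteins and lipid synthesis showed the same side. All 12 genes of a list of hepatocyte plasma proteins and factors were higher in periportal spots (median 0.78), with albumin (Alb) at 57359.5 against 32399.6 CPM in A and 67664 against 34895 CPM in B (0.89, adjusted p = 2.47e-06). Cholesterol synthesis and lipogenesis had 12 of 14 genes higher and none lower (median 0.75), with Sqle, an early enzyme of sterol synthesis, at 0.94 and fatty acid synthase Fasn at 0.91. Summed, this list was 1.60 times as high in periportal as in portal-poor spots of A, but 1.06 times in B. Fasn differed in level between sections, at 1137 against 537 CPM in A and 183 against 112 CPM in B. Pigr, the receptor that carries immunoglobulin A into bile, stood at 466 against 194 CPM and 524 against 191 CPM (1.36, adjusted p = 2.03e-09).

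Bile acid genes were divided. Of 13, 6 were higher in periportal spots and 3 lower (median 0.49). Under total-count scaling 3 were higher and 4 lower (median 0.16), and in spots rich in hepatocyte UMIs 2 and 3, and the summed list was 1.01 times as high in periportal as in portal-poor spots of A and 1.09 times in B. The bile salt export pump Abcb11 was higher, at 1.12 (adjusted p = 7.79e-07). The 3 lower genes were Cyp7b1 (-0.67), Abcc2 (-0.28) and Abcc3 (-0.26), and all 3 lost their calls without A, at -0.49, -0.19 and -0.14, while Abcc2 and Abcc3 lost theirs without B too, at -0.36 and -0.35. Lipid droplet genes were divided as well, with G0s2 and Cideb higher in periportal and Cidec, Fabp4, Cd36 and Plin2 higher in portal-poor spots, of 10 tested (median -0.32), and 3 of the 4 portal-poor calls were made without A and 2 without B.

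**Figure D2:**
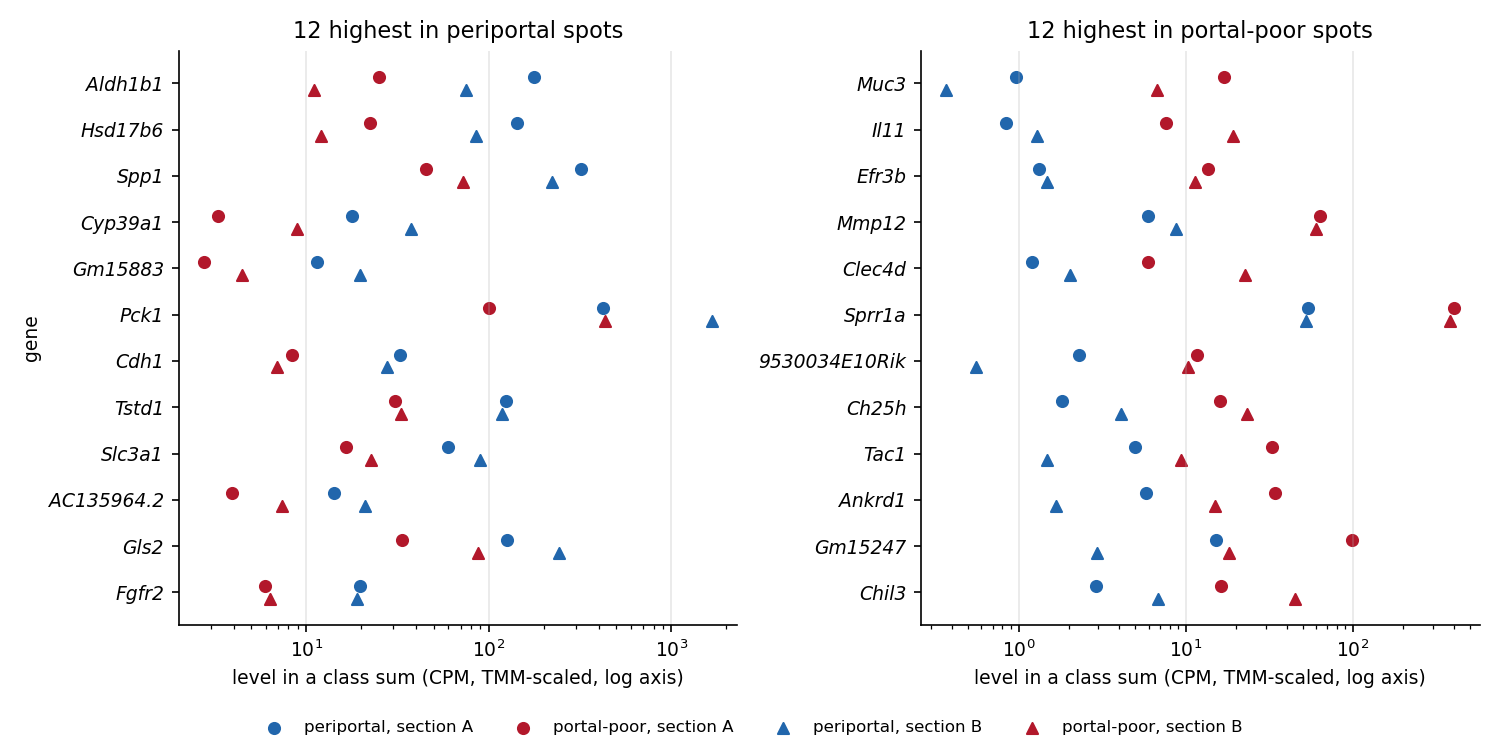
Normalised counts (CPM, log axis) of the 12 genes with the largest differences in each direction, with 1 point per section and spot class at 24 h. Colour gives the class and shape the section, and within each section the classes lie on the same sides for all genes shown.

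Acute-phase genes, which hepatocytes switch on in response to interleukin-6, were mostly periportal: 18 of 23 were higher there and 2, Il1rn and Orm3, higher in portal-poor spots (median 0.96). Lcn2, a siderophore-binding protein released after liver injury, stood at 1052 against 335 CPM in A and 2616 against 843 CPM in B, a log2 difference of 1.64 (SE 0.18, adjusted p = 5.06e-05). At 0 h it lay between 2.11 and 6.87 CPM in every class sum, so at 24 h both classes held far more than either did before injury. Haptoglobin (Hp) stood at 19659.9 against 9365 CPM and 31319.6 against 12994 CPM (1.17, adjusted p = 3.97e-07), and the fibrinogen gene Fgb at 0.94. Saa1, a serum amyloid A gene with close paralogs, was 1.62 higher (adjusted p = 0.015), and the adjusted p was 0.107 without A and 0.141 without B. The 2 exceptions behaved unlike the rest of the list, with Il1rn, the interleukin-1 receptor antagonist, at -1.13 (adjusted p = 9.16e-05) and Orm3 at -1.08 (adjusted p = 0.0153, at 0.18 without A and 0.124 without B).

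The leading portal-poor genes included Sprr1a and Mmp12. Sprr1a (chr3:92483952-92485895, minus strand, mm10), a cornified envelope protein induced in damaged epithelium and nerve, stood at 403 CPM in portal-poor against 53.4 CPM in periportal spots of A, and at 382 against 52.2 CPM in B. Its log2 difference was -2.89 (SE 0.28, adjusted p = 0.000455), and no UMI of Sprr1a was seen in either class of the 0 h sections. Mmp12, the macrophage elastase, stood at 63.1 CPM in portal-poor against 5.92 CPM in periportal spots of A, and at 59.7 against 8.7 CPM in B (-3.12, adjusted p = 2.29e-10). The sections gave almost the same values for these genes, with a wide gap between the classes.

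The largest fold difference was that of Muc3, an intestinal mucin gene, with 235 UMIs in the portal-poor and 10 in the periportal spots of both sections (log2 -4.12, adjusted p = 2.72e-08). Il11, a cytokine of the interleukin-6 family, had 228 portal-poor against 14 periportal UMIs (-3.54, adjusted p = 4.89e-07), although DESeq2 did not call it (adjusted p = 0.787). Of myeloid genes, the C-type lectin Clec4d was at -3.01 (-2.29 without B) and the chitinase-like protein gene Chil3 at -2.62 (adjusted p = 2.73e-10). The other leading genes were Efr3b (-3.16), 9530034E10Rik (-2.81), the cholesterol hydroxylase gene Ch25h (-2.79), the substance P precursor gene Tac1 (-2.70), the stretch-responsive YAP target Ankrd1 (-2.69) and Gm15247 (-2.69). Muc3, Il11, Sprr1a and Tac1 had no UMI in the class sums of the 0 h sections, so no fold against 0 h is given for them.

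Heat shock proteins refold or hold damaged proteins and are switched on by the factor HSF1, which binds repeats of the letters GAA in their promoters. The promoters of 4 heat shock genes are shown here as examples from the 6 promoters of the list that held a match to such letters. Each run is the 250 bases before the start of the gene, read 5′ to 3′ on the gene's own strand from RefSeq (GRCm38.p6), and capitals mark GAANNTTC or TTCNNGAA.
Hspa1a, chr17:34972157-34972406, minus: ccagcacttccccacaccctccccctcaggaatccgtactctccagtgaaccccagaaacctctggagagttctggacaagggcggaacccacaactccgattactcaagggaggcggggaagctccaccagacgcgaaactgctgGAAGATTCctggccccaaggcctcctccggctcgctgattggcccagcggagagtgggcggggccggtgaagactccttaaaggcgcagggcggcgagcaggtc
Hspa1b, chr17:34959239-34959488, minus: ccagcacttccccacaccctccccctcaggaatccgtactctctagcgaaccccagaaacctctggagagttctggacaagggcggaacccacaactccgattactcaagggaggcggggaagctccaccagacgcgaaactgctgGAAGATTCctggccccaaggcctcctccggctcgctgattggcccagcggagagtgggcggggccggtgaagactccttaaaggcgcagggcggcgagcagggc
Hspb1, chr5:135887669-135887918, plus: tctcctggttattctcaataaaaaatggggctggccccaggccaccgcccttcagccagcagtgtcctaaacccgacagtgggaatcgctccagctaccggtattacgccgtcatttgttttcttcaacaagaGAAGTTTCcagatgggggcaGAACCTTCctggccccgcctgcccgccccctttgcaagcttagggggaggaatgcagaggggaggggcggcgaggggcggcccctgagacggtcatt
Hspe1, chr1:55087898-55088147, plus: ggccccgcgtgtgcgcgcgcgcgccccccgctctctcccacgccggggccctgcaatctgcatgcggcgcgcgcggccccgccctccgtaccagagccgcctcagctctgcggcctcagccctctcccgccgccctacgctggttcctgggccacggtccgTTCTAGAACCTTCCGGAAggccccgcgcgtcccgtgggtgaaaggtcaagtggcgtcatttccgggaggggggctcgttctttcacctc
The last match begins 104 bases before the start of the gene in Hspa1a and Hspa1b, 97 before that of Hspb1, and 79 before that of Hspe1, where 3 matches overlap. Of 10 heat shock promoters found in the RefSeq table, 6 held a match (Dnaja1, Hspa1a, Hspa1b, Hspb1, Hspe1 and Hsph1), against 12.8% of all 32851 promoters and 10.3% of the 10475 genes tested that had one. A match describes these letters and shows no binding.

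Hspa1a and Hspa1b encode the inducible HSP70, and they are near-identical copies, so reads may be split between them. Hspa1a stood at 275 CPM in portal-poor against 47.2 CPM in periportal spots of A, and at 162 against 28 CPM in B, 5.80-fold higher (log2 -2.54, SE 0.11, adjusted p = 6.92e-14). Hspa1b had a log2 difference of -2.59 (adjusted p = 6.85e-14). At 0 h Hspa1a lay between 1.01 and 7.26 CPM, with like values in both classes (0.04, adjusted p = 0.949). The copies differed in this. Over the alternative settings the change from 0 h was -2.27 to -1.20 for Hspa1b, against -3.01 to -1.76 for Hspa1a. Of the heat shock list, 2 genes were called portal-poor and 1 periportal at 0 h.

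Across the heat shock list 9 of 13 genes were higher in portal-poor spots (6 without B) and none in periportal spots (median -0.90), read against 13.4% of all genes tested. The mitochondrial co-chaperone Hspe1 stood at 1874 CPM in portal-poor against 946 CPM in periportal spots of A, and at 1449.9 against 639 CPM in B (-1.08, adjusted p = 1.42e-08), and the HSP40 gene Dnajb1 was at -1.11 (adjusted p = 1.19e-08). The small heat shock protein gene Hspb1 was at -2.38 (adjusted p = 0.00576), at 0.0509 without A and 0.0813 without B. Hspa8, the constitutive HSP70, did not pass the test, at -0.18 (adjusted p = 0.258). Within spots rich in hepatocyte UMIs, 9 heat shock genes were higher on the portal-poor side, read against 7.93% of all genes tested there.

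Targets of NRF2, the factor that answers oxidative and electrophile stress, lay on the same side: 14 of 17 were higher in portal-poor spots and none in periportal spots (median -0.90). Srxn1, which repairs oxidised peroxiredoxins, stood at 434 CPM in portal-poor against 105 CPM in periportal spots of A, and at 374 against 88.5 CPM in B (-2.06, adjusted p = 3.74e-05). The quinone reductase Nqo1 was at -2.07 (adjusted p = 3.57e-08), the cystine transporter gene Slc7a11 at -2.20, thioredoxin reductase Txnrd1 at -0.69 and the peroxiredoxin Prdx1 at -0.72. The promoter of Prdx1 is given as an example of the NRF2 core letters, TGACNNNGC on either strand, in capitals and beginning 133 bases before the start (RefSeq, GRCm38.p6).
Prdx1, chr4:116685349-116685598, plus: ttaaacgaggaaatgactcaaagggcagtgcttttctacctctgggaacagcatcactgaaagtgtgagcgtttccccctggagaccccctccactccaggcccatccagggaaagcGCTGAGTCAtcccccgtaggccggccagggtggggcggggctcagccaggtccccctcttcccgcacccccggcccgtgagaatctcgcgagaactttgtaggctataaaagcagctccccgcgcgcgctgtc
Of 15 NRF2 target promoters in the table, 4 held the core (Abcc4, G6pdx, Gclm and Prdx1), against 10.2% of all promoters and 12.2% of those of genes tested. That of Srxn1 held none within 250 bases.

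Iron storage joined this group. Of 9 genes of metallothionein, haem and iron handling, 5 (Fth1, Ftl1, Hmox1, Blvrb and Tfrc) were higher in portal-poor spots and 2, the metal transporters Slc39a14 and Slc40a1, in periportal spots (median -0.77). Ferritin heavy chain, Fth1, stood at 20113 CPM in portal-poor against 7149 CPM in periportal spots of A, and at 16862 against 7152 CPM in B (-1.36, SE 0.11, adjusted p = 4.23e-09), and its light chain Ftl1 at -0.93 (adjusted p = 2.13e-06). Haem oxygenase Hmox1 was at -1.07 (adjusted p = 0.00502), and at -0.71 (adjusted p = 0.103) without B.

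Several other stress groups leaned to portal-poor spots. Of 12 p53 targets 8 were higher there (6 without A and 4 without B) and none in periportal spots (median -0.65), with the apoptosis gene Bax at -0.70 (adjusted p = 7.98e-06) and Mdm2 at -0.50. The cell-cycle inhibitor Cdkn1a, at -0.77, did not pass the test (adjusted p = 0.109). Of 14 immediate early and AP-1 genes 9 were higher in portal-poor spots and none in periportal spots (median -1.34), led by Fosl1 (-2.47, adjusted p = 4.71e-09) and Atf3 (-1.91, adjusted p = 2.29e-10). Of 16 hypoxia and glycolysis genes 10 were higher in portal-poor spots (6 without A and 6 without B), with the pyruvate kinase Pkm at -1.22 (adjusted p = 6.04e-09), and only Vegfa was higher in periportal spots, at 0.41 and, without A, at 0.22 with no call (median -0.54). ER stress and ATF4 genes were divided, with 5 of 14 higher in periportal and 4 in portal-poor spots (median 0.09). Under total-count scaling 2 were periportal and 6 portal-poor (median -0.24). The chaperone genes Manf (0.68) and Herpud1 (0.93) were periportal together with Sdf2l1, Xbp1 and Hspa5, whereas the ATF4-side genes Psat1, Trib3, Sesn2 and Chac1 were portal-poor. Hspa5 lost its call without A (0.29), without B (0.41) and with DESeq2 (0.35), Sesn2 without A (-0.54), without B (-0.90) and with DESeq2 (-0.72), and Chac1 without B (-0.46) and with DESeq2 (-0.71). No call fell on the 13 mitochondrially encoded genes (median 0.10, at -0.23 under total-count scaling) with edgeR, which gave an unadjusted p under 0.05 for 1 of the 13, and DESeq2 also called 0.

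The promoter of Sprr1a is shown because it alone among the promoters of leading portal-poor genes held letters of AP-1, the factor pair of the Fos and Jun families. Capitals mark TGANTCA, the letters bound by AP-1, with 2 matches of which the last begins 116 bases before the start (RefSeq, GRCm38.p6).
Sprr1a, chr3:92485882-92486131, minus: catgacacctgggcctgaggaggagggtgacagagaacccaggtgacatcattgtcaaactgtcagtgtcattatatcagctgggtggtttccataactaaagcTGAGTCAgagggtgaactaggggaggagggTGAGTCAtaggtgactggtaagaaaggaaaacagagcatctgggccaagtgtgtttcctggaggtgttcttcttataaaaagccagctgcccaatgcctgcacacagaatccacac
It was 1 of 11 such promoters in the table, against 6.75% of all promoters and 4.73% of those of genes tested. The letters were also in 7 of 19 acute-phase promoters (36.8%), a mostly periportal list. Among the portal-poor lists, they were in 3 of 15 wound edge promoters (20%: Anxa2, S100a11 and Sprr1a) and 3 of 15 NRF2 target promoters (20%: Osgin1, Prdx1 and Srxn1). They were in 1 of 10 heat shock promoters (Bag3) and in 0 of 10 promoters of immediate early and AP-1 genes.

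Genes of the wound edge, a list of annexins, S100 proteins, keratins and cytoskeleton genes, were higher in portal-poor spots for 17 of 20 (16 without A and 10 without B) and in periportal spots for none (1 without B, median -0.996). Anxa2, a membrane-binding annexin, stood at 109 CPM in portal-poor against 34 CPM in periportal spots of A, and at 183 against 44.1 CPM in B (-1.87, SE 0.17, adjusted p = 2.61e-06). The urokinase receptor gene Plaur, which was not in the list, stood at 17.8 CPM in portal-poor against 2.3 CPM in periportal spots of A, and at 31.1 against 6.66 CPM in B (-2.52, adjusted p = 2.93e-09). Of 41 genes of the study's migratory hepatocyte signature, derived from human nuclei and read here by mouse symbol, 16 were higher in portal-poor spots (13 without A and 10 without B) and 5 in periportal spots: Bicc1, Gmds, Asph, Prkca and Lpgat1 (1 without A and 2 without B, median -0.47). Over all genes tested 13.4% were portal-poor and 14.5% periportal. Of the 2 shares of the signature, only the portal-poor share lay above that of all genes. Anxa2 was among its portal-poor members.

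Of 17 cell cycle genes, Ccnd2, Mcm2, Mcm6 and Pcna were higher in portal-poor spots and none in periportal spots (median -0.50), and without B none was called. The portal-poor calls of this list are read against 13.4% of all genes tested. The proliferation marker Mki67 stood at 1.93 CPM in both classes of A, and at 0.555 CPM in periportal against 0 in portal-poor spots of B. Chemokine genes had 9 of 16 higher in portal-poor spots (8 without A and 5 without B) and 2, Cxcl1 and Ccl9, in periportal spots (median -0.59, at -1.47 without A). Ccl2, which draws in monocytes, stood at 84.1 CPM in portal-poor against 20.2 CPM in periportal spots of A, and at 84.3 against 18.1 CPM in B (-2.13, adjusted p = 6.25e-09), with Ccl7 at -2.44. The neutrophil attractant gene Cxcl1 went the other way, at 70 against 27.7 CPM in A and 174 against 71.8 CPM in B in favour of periportal spots (1.30, adjusted p = 4.07e-07). The other Cxcl genes called were higher in portal-poor spots: Cxcl2, which also attracts neutrophils, Cxcl10, Cxcl14 and Cxcl16.

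**Figure D3:**
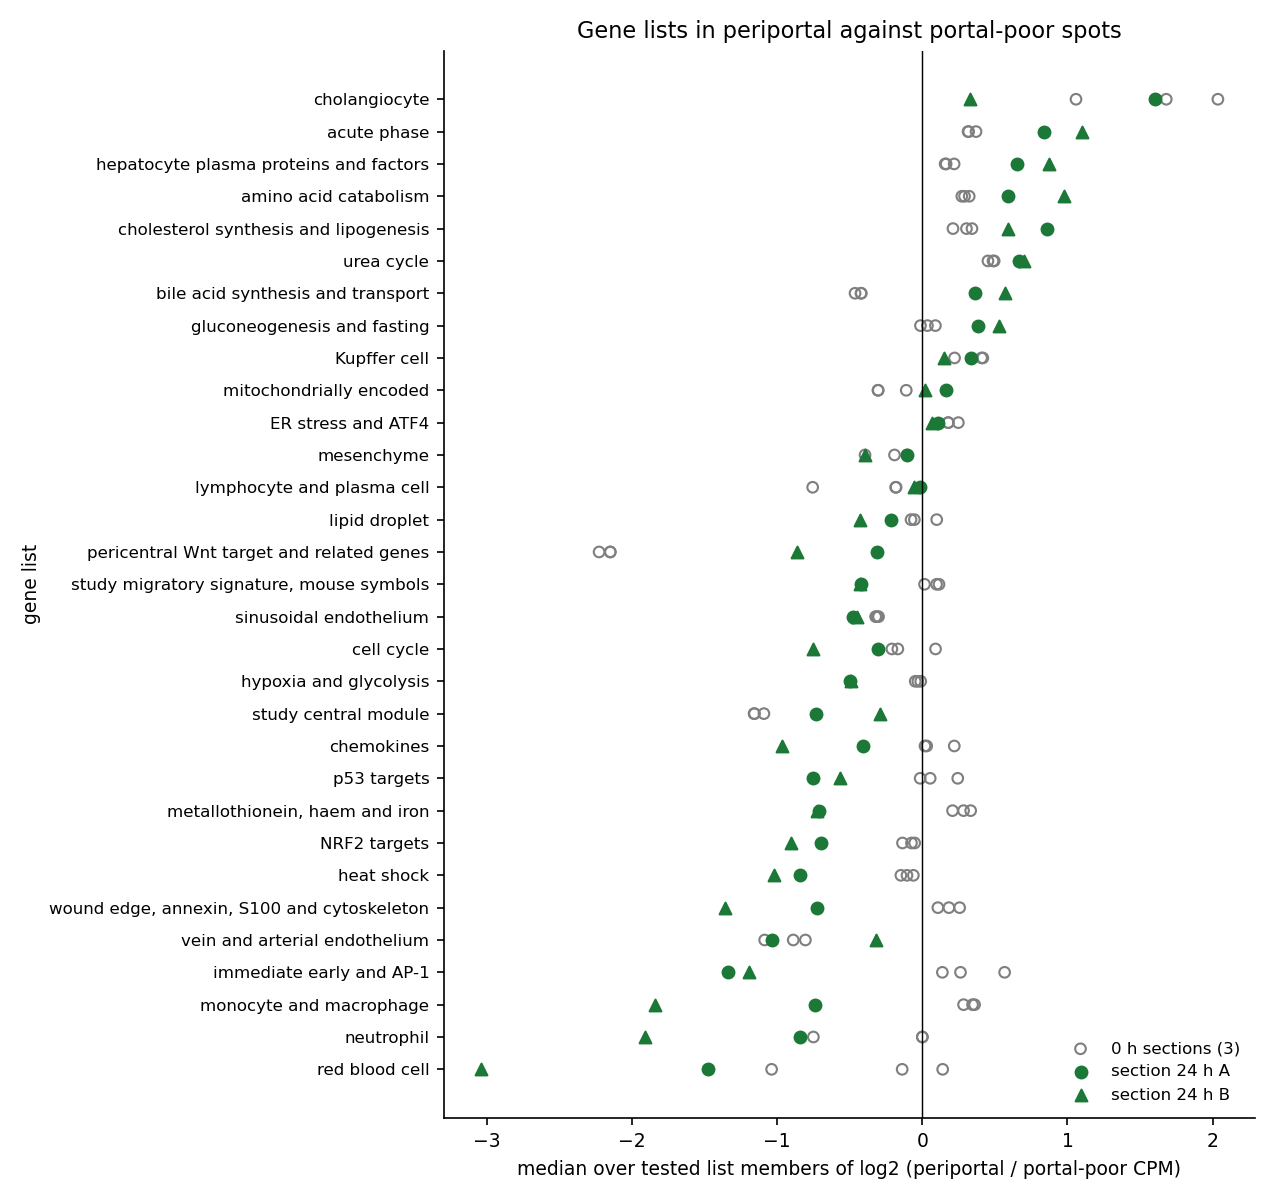
Median over the tested members of each gene list (vertical axis) of the log2 ratio of periportal to portal-poor CPM (horizontal axis), with 1 point for each section at 24 h (filled) and 0 h (open). Hepatocyte lists other than lipid droplet lie to the right of 0 in both 24 h sections, and the heat shock, NRF2, AP-1, wound edge and myeloid lists lie to the left.

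Markers of infiltrating cells moved with the portal-poor class. Monocyte and macrophage genes were higher in portal-poor spots for 10 of 14 (11 without A and 6 without B), with a median of -1.40 that was -0.74 without B. Summed, they gave 624 UMIs per 1000000 in portal-poor against 327 in periportal spots of A, and 812 against 241 in B, and no marker was at 0. At 0 h the same sums lay between 206 and 262. Lyz2, the lysozyme of myeloid cells, stood at 355 CPM in portal-poor against 218 CPM in periportal spots of A, and at 428 against 145 CPM in B (-1.12, adjusted p = 1.25e-05). Neutrophil genes were higher in portal-poor spots for 8 of 11 (6 without A and 4 without B, median -1.61 and -0.99 without B), with portal-poor against periportal sums of 90.7 against 38.9 UMIs per 1000000 in A and 319 against 60.3 in B, and 1 to 3 of the 14 listed genes at 0 in a class sum. The spots rich in hepatocyte UMIs left out only the 20% of each section lowest in the 5 hepatocyte genes. Among them 13 of 17 NRF2 targets, 13 of 20 wound edge genes, 7 of 14 macrophage genes and 5 of 10 neutrophil genes were higher on the portal-poor side. The share of all 12947 genes tested there was 7.93%. The part of infiltrating cells in the portal-poor excess of the lists above was not tested.

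Resident cells gave a mixed picture, read against 14.5% of all genes tested that were periportal and 13.4% that were portal-poor. Kupffer cell genes were higher in periportal spots for Timd4, Clec4f and Marco of 9 (1 without A and 1 without B) and in portal-poor spots for none (median 0.26, at -0.07 under total-count scaling), and their sums were close, at 1039 periportal against 1017 portal-poor UMIs per 1000000 in A and 816 against 1009.6 in B. Sinusoidal endothelium had 6 of 10 genes higher in portal-poor spots (4 without A and 4 without B) and only Clec4g higher in periportal spots (0.81, adjusted p = 8.32e-06, median -0.49). For vein and arterial endothelium, of 8 genes Vwf was periportal (1.61) and Wnt2, Selp, Rspo3 and Efnb2 portal-poor (median -1.25). Without A 3 genes were called portal-poor and without B 2, and Efnb2 moved from -1.11 to 0.10 without A. Mesenchyme had Mgp, Lrat and Rgs5 higher in periportal and Acta2, Tagln and Col1a2 in portal-poor spots, of 14 (median -0.16). Without A 0 were called periportal and 4 portal-poor, and without B 1 and 2. Acta2, the smooth muscle actin of myofibroblasts, was at -1.17 (adjusted p = 7.98e-05).

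Cholangiocyte genes had Spp1, Cdh1 and Krt7 of 7 higher in periportal spots (2 without A) and none in portal-poor spots (median 1.17, at 0.33 without A), with sums of 362 against 86.8 UMIs per 1000000 in A and 250 against 136 in B. Of 9 lymphocyte and plasma cell genes only Ighm was called, higher in portal-poor spots at -1.83 (adjusted p = 5.06e-06, median -0.25). Red blood cell genes differed most between sections. The 4 globin genes Hba-a1, Hba-a2, Hbb-bs and Hbb-bt were higher in portal-poor and Alas2, the haem synthesis gene, in periportal spots (median -2.31). Their portal-poor against periportal sums were 454 against 147 UMIs per 1000000 in A and 2054 against 203 in B. Without B none of the 5 was called.

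Zonation of the uninjured liver gives the background for these contrasts. The same ranking within the 3 sections at 0 h called 821 genes (6.06%) higher in periportal and 853 (6.29%) higher in portal-poor spots. Of the 821, 449 were also periportal at 24 h, which is 22.8% of the 1969 periportal genes at 24 h, and 225 of the 853 were also portal-poor at 24 h, 12.4% of the 1818. Of the genes without a call at 0 h, 1417 (11.9%) were periportal and 1529 (12.9%) portal-poor at 24 h. A called difference between times was found for only 814 and 708 of these. Some genes changed sides: 64 went from periportal at 0 h to portal-poor at 24 h and 103 the other way, each with a called difference between times.

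Tested directly, the class difference at 24 h minus that at 0 h was positive for 1339 genes (9.88%) and negative for 960 (7.08%). With spots ranked by Cyp2f2 alone 1647 genes were called, and 1448 of the 2299 were called again with the same sign. Among the changes that lost their call under that ranking were those of Anxa2, Mmp12 and Pck1. Without section B the total of 2299 fell to 822, and under total-count scaling 16.1% of 2991 were positive, against 58.2%. With so few sections per time, all of these compare mice as much as times.

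Many pericentral genes had a smaller contrast at 24 h than at 0 h. The ranking itself rested on fewer UMIs at 24 h. A periportal spot held a median of 32 and 49 UMIs of the ranking genes, against 87 to 122 at 0 h. A portal-poor spot held 6 and 12, against 15.5 to 21. Same-class spots made up 34.7% to 39.3% of the spots touching these classes at 24 h, against 42.3% to 51.0% at 0 h. The part of this in the smaller contrasts was not tested. At 0 h the portal-poor spots were pericentral by their genes: all 23 genes of the study's central module and 15 of 16 pericentral Wnt target and related genes were higher there, with medians of -1.14 and -2.36. At 24 h the central module had 10 genes higher in portal-poor spots (5 without A and 8 without B) and 3, Ang, Rnase4 and Aldh2, in periportal spots (1 without A and 0 without B, under total-count scaling or in hepatocyte-rich spots). Its median was -0.58, at -0.29 without A. The Wnt list had 7 genes higher in portal-poor spots (3 without A and 4 without B) and none in periportal spots, with a median of -0.45 that was -0.998 without A. Summed, the Wnt list was 4.58 to 5.10 times as high in portal-poor as in periportal spots at 0 h, and 2.59 times in A and 2.81 times in B at 24 h. The difference between times was called positive for 13 of the 23 and 8 of the 16, read against 9.88% of all genes tested, and negative for none.

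Glul, the glutamine synthetase of the last hepatocytes before the central vein, stood at 486 to 540 CPM in portal-poor and 89.4 to 103 CPM in periportal spots of the 0 h sections. At 24 h it stood at 28.4 CPM in portal-poor against 23.6 CPM in periportal spots of A and 20.2 against 9.26 CPM in B, low in both classes. The log2 difference was -2.41 at 0 h and -0.56 at 24 h (adjusted p = 0.00891, at -0.27 with no call without B), and the change between times was 1.85 (SE 0.18, adjusted p = 8.52e-07). Cyp2e1 was also far lower than at 0 h, yet kept its side. It stood at 594 CPM in portal-poor against 168 CPM in periportal spots of A, and at 378 against 90.1 CPM in B, a log2 difference of -1.94 (adjusted p = 5.14e-05) against -2.33 at 0 h, and the change of 0.39 did not pass the test (adjusted p = 0.366).

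**Figure D4:**
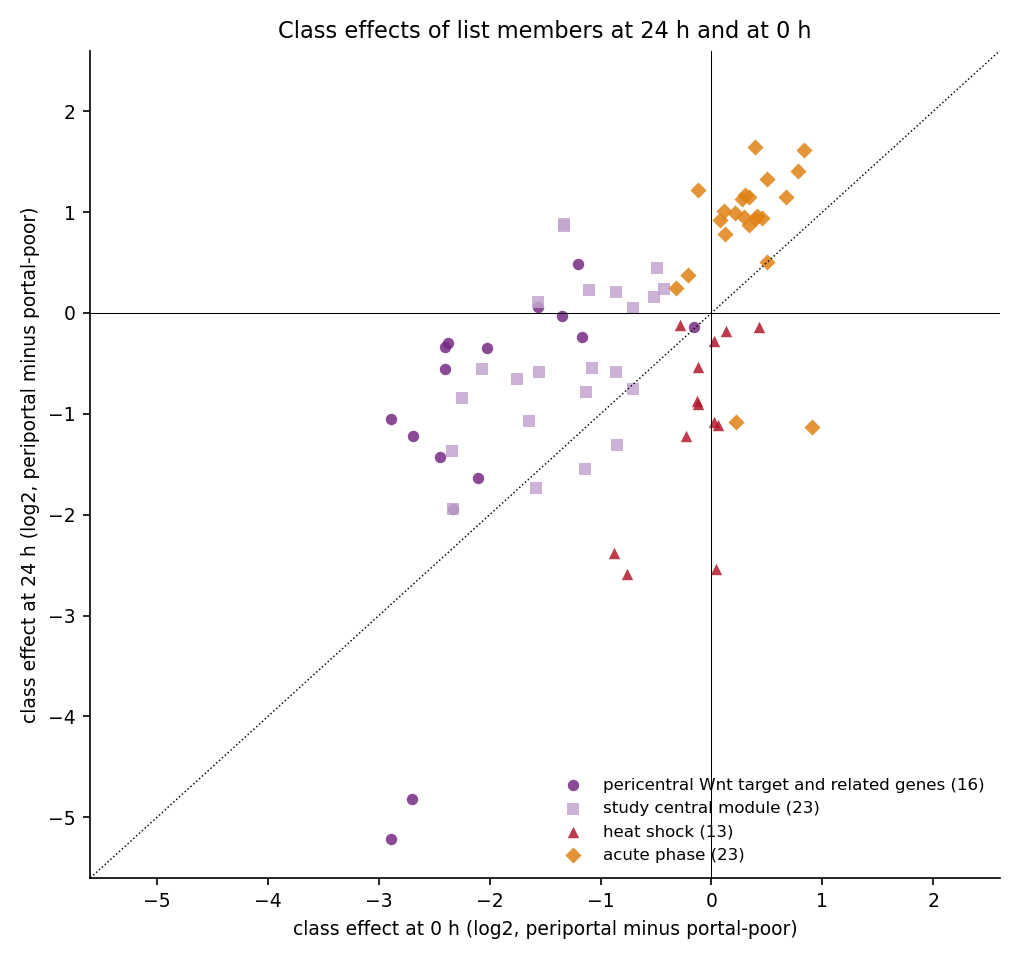
Log2 difference between periportal and portal-poor spots at 0 h (horizontal axis) and at 24 h (vertical axis), with 1 point per gene of 4 lists and a dotted line where both are equal. Most pericentral genes lie left of 0 and above the line, heat shock genes lie below 0 at 24 h, and acute-phase genes lie mostly above the line.

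Among genes with the largest called changes, those moving towards periportal spots were pericentral at 0 h. Rdh9, a retinol dehydrogenase, lay at 13.8 to 29 CPM in portal-poor against 2.14 to 4.09 CPM in periportal spots at 0 h, and at 5.42 against 12.6 CPM and 4.86 against 12.8 CPM at 24 h, a change of 4.11 (adjusted p = 0.00134). Gstm2, a glutathione transferase, went from 177 to 208 CPM in portal-poor against 48 to 55.9 CPM in periportal spots at 0 h to nearly equal classes at 24 h, at 54.6 against 58.2 CPM in A and 18.8 against 23.5 CPM in B (a change of 2.05, adjusted p = 9.17e-07). Ang and Rnase4, secreted ribonucleases whose genes overlap so that reads may be shared, crossed from -1.33 each to 0.88 and 0.86, and without B the change of Ang, 1.99, had an adjusted p of 0.0576. Ablim3 crossed from -1.15 to 0.78 (a change of 1.93, adjusted p = 8.52e-07). Cib2, Susd4 and Rhbg, an ammonium transporter, had changes of 2.33, 2.19 and 2.06, and few UMIs were left of them at 24 h, with 14, 19 and 13 in periportal and 20, 34 and 22 in portal-poor spots of both sections. Without A the changes of Cib2 and Rhbg were 0.79 and 0.76 with no call, and without B that of Susd4 was 1.98 with no call.

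Genes moving towards portal-poor spots were close to absent at 0 h. Procr, the endothelial protein C receptor, had 55 periportal and 13 portal-poor UMIs at 0 h and 36 and 267 at 24 h, a change of -4.22 (adjusted p = 3.73e-06). Mmp12 had 15 and 4 UMIs at 0 h and 96 and 1142 at 24 h. Sorcs2, Ch25h and Gpnmb had 7, 3 and 3 periportal and no portal-poor UMIs at 0 h, and 226, 350 and 261 portal-poor UMIs at 24 h, so that only their 24 h differences of -2.41, -2.79 and -2.29 are read here. Wfdc3 and Ankrd1 had 16 and 14 periportal UMIs at 0 h against 1 and 3 portal-poor. Cyp2a4, a close paralog of other Cyp2a genes, was portal-poor mainly in A, at 19.1 CPM in portal-poor against 3.02 CPM in periportal spots, and at 1.84 against 0.926 CPM in B, and its change of -3.45 was -2.02 with no call without A.

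Called changes from 0 h towards portal-poor spots, which 7.08% of all genes tested had, fell on 15 of 20 wound edge genes, 10 of 14 immediate early and AP-1 genes, 10 of 17 NRF2 targets, 8 of 14 macrophage genes and 7 of 13 heat shock genes, with none of these lists having a change towards periportal spots. Atf3, a stress-induced transcription factor, was periportal at 0 h (1.27) and portal-poor at 24 h (a change of -3.18, adjusted p = 1.38e-09). Towards periportal spots, where 9.88% of all genes tested changed, moved 16 of 23 acute-phase genes, with 1 the other way, 11 of 12 plasma protein genes and 8 of 13 bile acid genes, with none the other way in either. Hp moved from 0.31 to 1.17 (a change of 0.86, adjusted p = 0.000867). The change of Lcn2, 1.25, was close to the threshold (adjusted p = 0.0479) and was not called without A (adjusted p = 0.133) or without B (adjusted p = 0.185).

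The levels of the leading genes were also read across all spots of a section. With the spots of each section divided into 5 equal groups along the ranking, 10 of the 12 leading periportal genes rose at each of the 4 steps in both sections, and 6 of the 12 leading portal-poor genes fell at each step in both. These sums have their own scaling, so their ends differ slightly from the values above. These levels are described without a test, since the ranking orders the same spots.

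**Figure D5:**
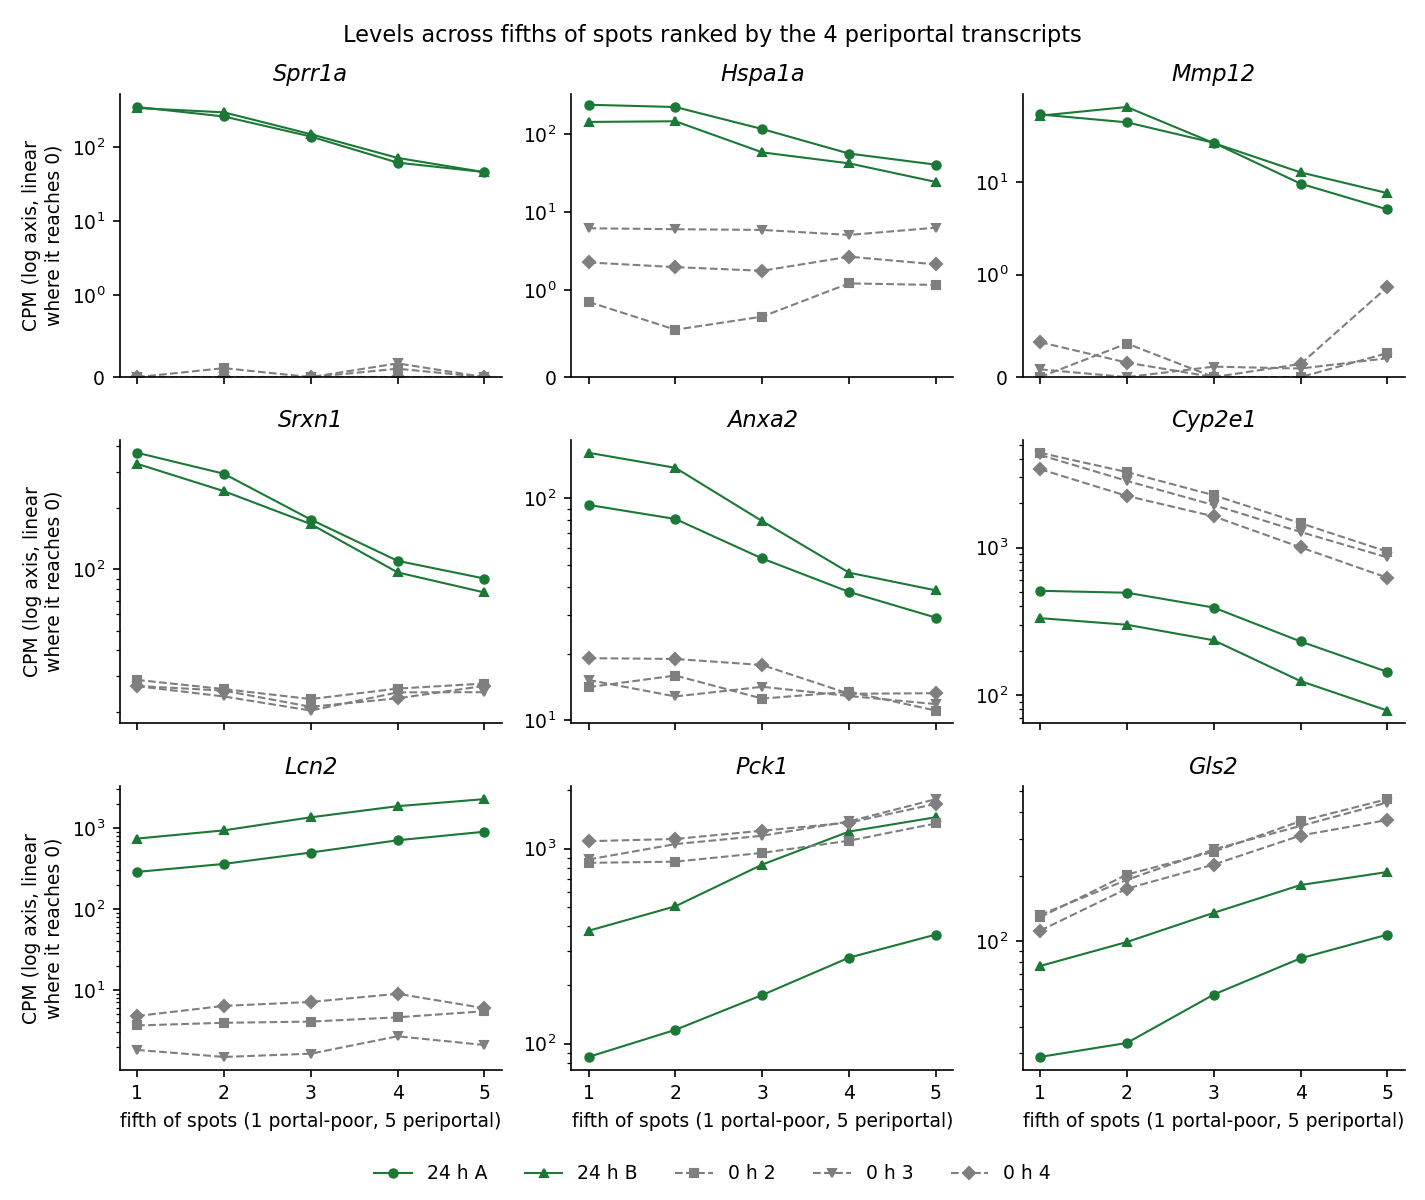
Normalised counts (CPM, log axis, linear below 1 where values reach 0) of 9 genes in the 5 groups of spots, from portal-poor (1) to periportal (5), with 1 line per section at 24 h (solid) and 0 h (dashed). At 24 h Lcn2, Pck1 and Gls2 climb along the ranking and Sprr1a, Srxn1 and Anxa2 decline in both sections, while Cyp2e1 declines at both times from a higher level at 0 h.

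Later sections were ranked the same way. The class difference at 24 h minus the mean of those at 36 h and 48 h was positive for 926 genes (6.83%) and negative for 986 (7.27%), and without section A the total of 1912 fell to 440. Of the 13 heat shock genes 8 had a called change towards portal-poor spots (8 without A and 7 without B) and none towards periportal spots (median -0.76), read against that 7.27%. The change was -2.03 for Hspa1b (adjusted p = 2.61e-07), -1.41 for Hspa1a (adjusted p = 0.00134) and -1.47 for Hspe1 (adjusted p = 1.56e-08). All 3 changes were called without A and without B. Nqo1 was also more portal-poor at 24 h (-1.17, adjusted p = 0.0026), but not without A (adjusted p = 0.0823). The myeloid genes Lyz2 (1.20, adjusted p = 0.000141) and Cd68 (1.24, adjusted p = 1.63e-05) had the opposite change, their portal-poor excess being smaller at 24 h than later. For Lyz2 the change was 0.76 without A and 1.62 without B, both called. Acta2 changed in the same way (1.09, adjusted p = 0.0024), but not without A (0.64, adjusted p = 0.137). For Sprr1a (-0.64, adjusted p = 0.287) and Mmp12 (-0.53, adjusted p = 0.147) the change did not pass the test, and neither did that of Aldh1b1 (0.01, adjusted p = 0.986).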

How the data were processed

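The deposited values were raw UMI counts per gene and spot (31053 genes, 4992 barcodes per section), which the authors made with Space Ranger 1.0.0 on mm10, per the labels, with Ensembl 93 gene models, per the study's methods, and did not normalise. The same 4992 barcodes occur in every section because they belong to the array. Spots on tissue were kept where 800 genes or more were detected and no more than 20% of UMIs were mitochondrial, and isolated spots were not removed by hand as in the study. UMIs were summed per section and spot class.

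All 22 class sums of the 11 sections entered 1 edgeR 4.0.16 quasi-likelihood fit (R 4.3.3) with the section as block, a class effect per time, filterByExpr, TMM scaling and robust dispersion, after the steps were tested on simulated data. Two-sided p-values were adjusted over 13554 genes by the Benjamini-Hochberg method. The sections held 31292663 to 67045372 UMIs in passing spots, and counts limit the precision of genes with few UMIs.

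The classes and the gene lists were chosen with earlier results of these data known. Named genes were the 12 with the largest called difference per direction, the 8 with the largest called change from 0 h per direction, both at 10 CPM or more, up to 4 abundant members per list, and members that the background or the study names. Other named genes were chosen after their values were seen, among them G6pc, Nqo1, Fosl1, Atf3, Ccl2, Ccl7, Plaur, Dnajb1, Hspb1, Il1rn, Orm3, Saa1, Hmox1, Vegfa, Slc7a11, Sqle, Cyp7b1, Abcc2, Abcc3, and members named beside small counts. Gene positions are from GENCODE M21 and promoters from RefSeq (GRCm38.p6). Alternatives were DESeq2 1.42.0, other scaling, filters, rankings and class sizes, hepatocyte-rich spots, and each section left out. Images were not used. A gene and the list that held it are not reported here.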

Additional observations from a re-analysis of the deposited data

Results flagged for a closer look

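Of the genes named for their change from 0 h, 16 had a class difference at 24 h that differed from that at 0 h by edgeR's test of the difference itself, and the values are log2 differences at 24 h minus those at 0 h. Towards periportal spots changed Rdh9 (4.11), Cib2 (2.33), Ang (2.21), Susd4 (2.19), Rnase4 (2.19), Rhbg (2.06), Gstm2 (2.05) and Ablim3 (1.93). Towards portal-poor spots changed Sorcs2 (-6.59), Ch25h (-5.91), Gpnmb (-5.32), Wfdc3 (-5.21), Mmp12 (-4.72), Ankrd1 (-4.56), Procr (-4.22) and Cyp2a4 (-3.45). For Sorcs2, Ch25h and Gpnmb the portal-poor spots at 0 h held no UMI, so their fitted values depend on the prior count and are no measured fold. The changes of Rdh9, Procr and Rnase4 were called in all alternatives run.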

How the results depend on the processing

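Within a section the classes share tissue, so the section was the block of every fit. With no replicate block 978 genes were called at 24 h, 94 for the change from 0 h and 9 for the change to later times, against 3787, 2299 and 1912. The letters A and B are only labels across time points. In hepatocyte-rich spots the counts were 2163, 779 and 415. With spots ranked on a random 50% of the UMIs and summed on the rest, 1480 genes were called for the change from 0 h and 1268 for the change to later times, while 2393 of the 3787 genes at 24 h were called again with the same sign. Leaving out each section in turn gave 1811 to 3977, 822 to 2507 and 440 to 2144 genes. Without spots at an edge, an alternative chosen after seeing the data, 3564, 2196 and 1812 genes were called. DESeq2 called 2858, 1679 and 1282. Under total-count scaling 61.7% of the 1884 genes called for the change to later times were positive, against 48.4%.

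Of 124 named genes called at 24 h, 53 kept direction and call under all 27 alternatives run. Signs turned for Efnb2 without 24 h A (0.101, against -1.75 without B), and among genes without a call for Mki67 ranked by Cyp2f2 alone (-0.804), under total-count scaling (-0.012) and within hepatocyte-rich spots (-0.063), Mt1 with no block (0.313) and without 24 h A (0.427, against -0.672 without B), and Scd1 without 24 h A (-0.259, against 1.026 without B). The cause was not tested. With 2 sections per class, small differences of genes with few UMIs were not detectable at this depth.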

Other observations

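In some genes the sections differed more than the classes. The metallothionein gene Mt1 stood at 1654 CPM in periportal and 2637 CPM in portal-poor spots of A, and at 21646 and 16121 CPM in B, so that the levels in B lay far above those in A and the classes ran in opposite directions. The log2 difference was -0.12 (adjusted p = 0.903). Scd1, the stearoyl-CoA desaturase, stood at 2179 and 1070.0 CPM in A and at 214 and 256 CPM in B (0.41, adjusted p = 0.373).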
